A study of Mus musculus with 2 samples.

Results

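The matrix proteases of the Adamts and Mmp families, the protease-like Adamtsl proteins and the inhibitors of the Timp family and Reck were compared between the webbed interdigit of Hammer toe embryos and the wild-type interdigit. The members were taken by gene symbol and not by any measured value: every gene named alone by a probe set whose symbol is Adamts, Adamtsl, Mmp or Timp with a number, and Reck. They were 43 genes of 18193 named on the array, namely 15 Adamts, 5 Adamtsl, 18 Mmp and 4 Timp genes and Reck. The 9 other mouse genes with such symbols (Adamts2, Adamts13, Adamts14, Adamts17, Mmp15, Mmp21, Mmp25, Mmp27 and Mmp28) were not analysed here.

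The tissue compared with wild type is labelled Hammer toe (homo), that is, embryos homozygous for the Hammer toe mutation. The wild type is tissue of embryos of the B6 strain. Both were taken at stage E13.5 (embryonic day) from natural matings, from the hind limb interdigits labelled ID2 and ID3. According to the design text the study used 3 sets of 5 littermates, or 15 embryos, per genotype, but each genotype is represented here by 1 array, and how the sets relate to it is not stated, so no value has an error between samples and no test was possible. The strain background of the mutants is not given in their labels, so strain and mutation cannot be told apart.

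Interdigital tissue is removed during limb development by cell death and by turnover of its matrix, which is rich in the large proteoglycan versican, fibronectin, fibrillins and fibrillar collagens. Adamts enzymes are secreted zinc proteases, several of which cut versican and aggrecan. In mice, combined loss of function of Adamts5, Adamts9 and Adamts20 leaves webbing between the digits. Mmp enzymes cut collagens and many other matrix proteins, and some of them are anchored in the membrane. Timp proteins block them in the matrix, and Reck does so at the cell surface. Adamtsl proteins resemble the non-catalytic part of Adamts enzymes, have no protease domain and bind matrix microfibrils.

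Most of these genes read close to wild type in Hammer toe. Values are MAS5 intensities, a linear brightness per probe set scaled to the same mean on both arrays, and ratios are Hammer toe over wild type. A gene was taken as measured when its brighter array lay above a floor of 78.1, the median of all values, and a value under the floor was raised to it, so that the ratio is then only a bound. Of the 43 members, 28 were measured and 15 lay under the floor on both arrays. Of the 28, 16 were higher and 12 lower in Hammer toe, with a median log2 ratio of 0.11. Of all 11621 measured genes, 6005 were higher and 5616 lower, with a median of 0.01. Only Adamts12 reached 1.5-fold higher, 1 of 28 members where 2.17% of all measured genes did, and no member was counted as 1.5-fold lower, where 1.39% of all measured genes were. Adamts8 and Mmp24, each under the floor on 1 array, have only a bound and may lie further out than counted. At a log2 ratio of 0.32 in size, 4 members were higher and 1 was lower, against 8.47% and 6.33% of all measured genes. The 5 are Adamts12, Adamtsl3, Adamtsl1 and Adamts16 on the higher side and Adamts1 on the lower side.

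**Figure D1:**
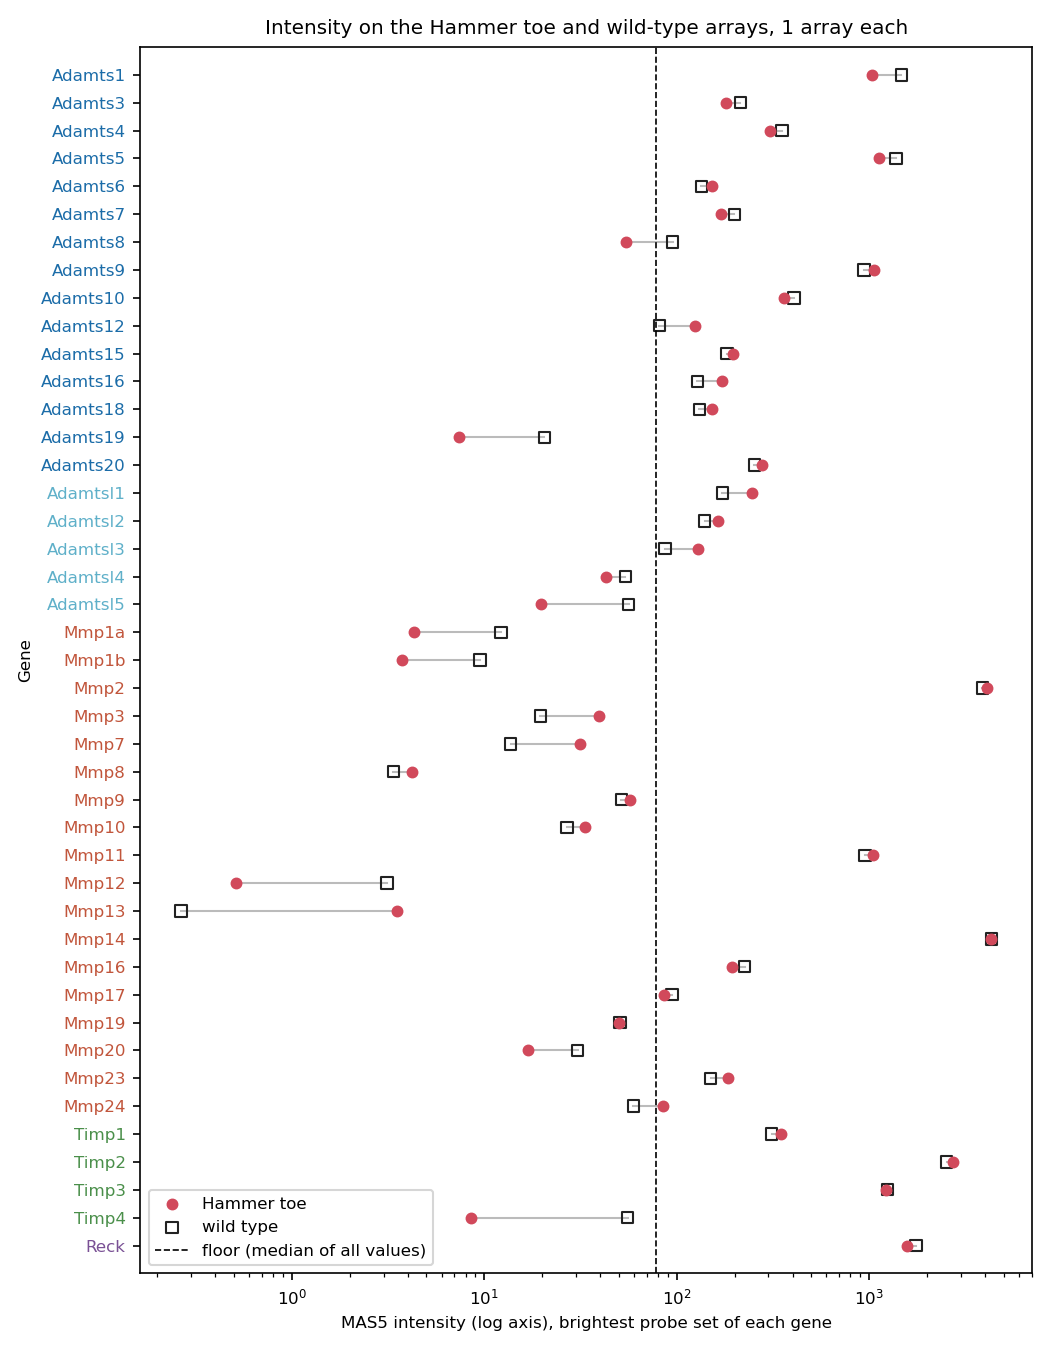
MAS5 intensity (log axis) of the brightest probe set of each of the 43 members on the Hammer toe array (filled circles) and the wild-type array (open squares), with 1 array per genotype and the dashed line at the floor of 78.1. The 28 measured genes mostly have overlapping symbols, while 15 genes, among them most Mmp genes, lie left of the line on both arrays.

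Many Mmp genes were unmeasured in both genotypes, among them those of a genomic cluster that have a probe set. In the RefSeq gene order of mouse chromosome 9, 10 Mmp genes follow each other from Mmp13 to Mmp7 with no other protein-coding gene between them. All 9 of those with a probe set were under the floor on both arrays, while 2 of the 9 Mmp genes elsewhere were, against 6572 of all 18193 genes. Each probe set binds with its own strength, so a value under the floor does not show that a transcript is absent. The upstream sequences of the cluster genes also differed in letters from those of the other members. The windows below are the 100 bases before the annotated start of the 7 cluster genes (RefSeq, GRCm38.p6) whose windows hold both an AP-1 motif (TGANTCA) and a TATA motif (TATAAA), shown in capitals.
Mmp13, chr9:7272414-7272513, plus strand: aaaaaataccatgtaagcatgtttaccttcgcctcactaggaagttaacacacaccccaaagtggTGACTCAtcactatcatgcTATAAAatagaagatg
Mmp1b, chr9:7388027-7388126, minus strand: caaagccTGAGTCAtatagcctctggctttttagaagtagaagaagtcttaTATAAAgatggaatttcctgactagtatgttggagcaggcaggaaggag
Mmp3, chr9:7445722-7445821, plus strand: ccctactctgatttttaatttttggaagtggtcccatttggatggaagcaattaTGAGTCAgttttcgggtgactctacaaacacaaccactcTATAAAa
Mmp1a, chr9:7464041-7464140, plus strand: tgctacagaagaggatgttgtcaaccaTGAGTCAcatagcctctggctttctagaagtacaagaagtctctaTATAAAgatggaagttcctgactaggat
Mmp10, chr9:7502242-7502341, plus strand: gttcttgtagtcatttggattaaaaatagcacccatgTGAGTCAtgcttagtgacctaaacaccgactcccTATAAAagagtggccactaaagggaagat
Mmp20, chr9:7628131-7628230, plus strand: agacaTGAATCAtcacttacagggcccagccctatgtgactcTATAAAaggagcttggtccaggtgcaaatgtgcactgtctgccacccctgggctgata
Mmp7, chr9:7691990-7692089, plus strand: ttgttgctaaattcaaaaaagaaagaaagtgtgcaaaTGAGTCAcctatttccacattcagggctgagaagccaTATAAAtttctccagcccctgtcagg

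For comparison, the 250 bases before the start are shown for Adamts1, Adamts12 and Mmp14. Among the members measured on both arrays, Adamts1 lay furthest below wild type and Adamts12 furthest above. Mmp14 read nearly the same on both arrays. Capitals mark GC boxes (GGGCGG) and TATA motifs (TATAAA), of which the Adamts12 window holds none.
Adamts1, chr16:85803114-85803363, minus strand: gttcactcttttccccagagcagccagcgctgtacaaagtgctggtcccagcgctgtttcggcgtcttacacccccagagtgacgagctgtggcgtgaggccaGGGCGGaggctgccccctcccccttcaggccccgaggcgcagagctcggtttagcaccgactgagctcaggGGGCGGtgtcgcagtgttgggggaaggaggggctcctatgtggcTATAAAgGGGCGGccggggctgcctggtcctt
Adamts12, chr15:11064523-11064772, plus strand: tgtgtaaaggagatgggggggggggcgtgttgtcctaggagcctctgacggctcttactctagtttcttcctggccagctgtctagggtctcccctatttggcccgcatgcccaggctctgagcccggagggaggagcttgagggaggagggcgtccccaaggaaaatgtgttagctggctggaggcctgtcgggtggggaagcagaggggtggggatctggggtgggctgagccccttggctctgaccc
Mmp14, chr14:54431348-54431597, plus strand: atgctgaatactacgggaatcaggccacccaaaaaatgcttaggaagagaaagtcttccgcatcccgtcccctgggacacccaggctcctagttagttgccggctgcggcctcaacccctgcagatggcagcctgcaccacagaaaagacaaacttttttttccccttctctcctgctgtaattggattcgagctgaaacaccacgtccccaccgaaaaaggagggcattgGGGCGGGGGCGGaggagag

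Sequence was available for 28 members in 31 windows of 250 bases, searched on both strands. The 11 cluster windows came from 9 genes and the 20 others from 19 genes. The Mmp1a and Mmp1b windows share runs of letters, so the windows are not independent counts. AP-1 motifs stood in 8 of the 11 windows of cluster genes and in 0 of the 20 windows of the other members, against 6.75% of all 32851 mouse windows. TATA motifs stood in 7 of the 11 cluster windows and in 2 of the 20 others, against 12.4% of all windows. GC boxes stood in 0 of the 11 cluster windows and in 16 of the 20 others, against 32.7% of all windows. The cluster windows held 37.2% to 53.2% G and C and the others 53.6% to 80.0%, so the windows differed in base composition as well. Among the 17692 mouse windows with at most 53.2% G and C, 9.22% held an AP-1 motif, 19.7% a TATA motif and 8.29% a GC box. A Gli motif (GACCACCCA) was in none of the members' windows and in 0.225% of all windows. Such matches are matches of letters and show no binding.

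Of the proteoglycan-cleaving enzymes measured on both arrays, Adamts1 alone lay outside the 95% range of its intensity class. Adamts8, under the floor in Hammer toe, has only a bound. Adamts1, which cuts versican and aggrecan, read 1041 on the Hammer toe array and 1470 on the wild-type array, a log2 ratio of -0.50 or 1.41-fold lower. Among the 4694 genes whose brighter array read above 1000, 95% lay within 1.24-fold, and 23 genes (0.490%) were as low as Adamts1 or lower. Adamts1 lies toward the dim end of that class. For genes whose brighter array read 200 to 1000, the 95% range was 1.45-fold, which would hold Adamts1. Its place outside the range may thus depend on where the class edge is set, which was not varied. The Adamts1 value rests on a single probe set.

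Adamts5, an aggrecanase, is the neighbour of Adamts1 among the protein-coding genes of chromosome 16. Adamts5 read 1125 in Hammer toe and 1379 in wild type, a log2 ratio of -0.29. This is within the 95% range of its intensity class, and 116 genes (2.47%) of that class were as low or lower. Its 4 probe sets were not of one sign: the ratio was -0.29, -0.11 and -0.25 on the 3 brighter ones and 0.23 on the dimmest, which read 102 in Hammer toe and 87.5 in wild type. The 4 averaged -0.11.

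Adamts9 and Adamts20, which with Adamts5 are the webbing genes, were near wild type on their brightest probe sets. Adamts9 read 1062 in Hammer toe and 941 in wild type, a log2 ratio of 0.17, and its other measured probe set stood at -0.30, with 108 in Hammer toe and 133 in wild type. Adamts20, the gene of the belted coat mutant, read 277 in Hammer toe and 253 in wild type, a log2 ratio of 0.13. Adamts4, also an aggrecanase, read 305 in Hammer toe and 352 in wild type, a log2 ratio of -0.21, while its other probe set stood at 0.30. The direction for Adamts4 and Adamts9 thus depends on the probe set. Adamts15 was at a log2 ratio of 0.11 and Adamts8, under the floor in Hammer toe (54.7, against 95.2 in wild type), was at least 1.22-fold lower, and how much lower is not measured. Of these 7 enzymes, grouped by their known substrates, 3 were higher and 4 lower, with a median of -0.21, and apart from Adamts8, which has only a bound, none reached 1.5-fold.

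Of 17 measured genes listed as proteoglycans and other substrates or cofactors, 11 were higher and 6 lower, with a median log2 ratio of 0.08. Of all 11621 measured genes, 6005 were higher and 5616 lower. Vcan, the gene of versican, read 5193 in Hammer toe and 4915 in wild type, a log2 ratio of 0.08, with probe sets from -0.15 to 0.13. Acan (aggrecan) was close to the floor, with 92.4 in Hammer toe and 78.7 in wild type. Hapln1, the link protein that holds such proteoglycans on hyaluronan, was 1.23-fold lower on its brightest probe set, and its 4 probe sets ranged from -1.02 to -0.29. Fbln1 (fibulin 1), a cofactor of Adamts1, was at -0.07.

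**Figure D2:**
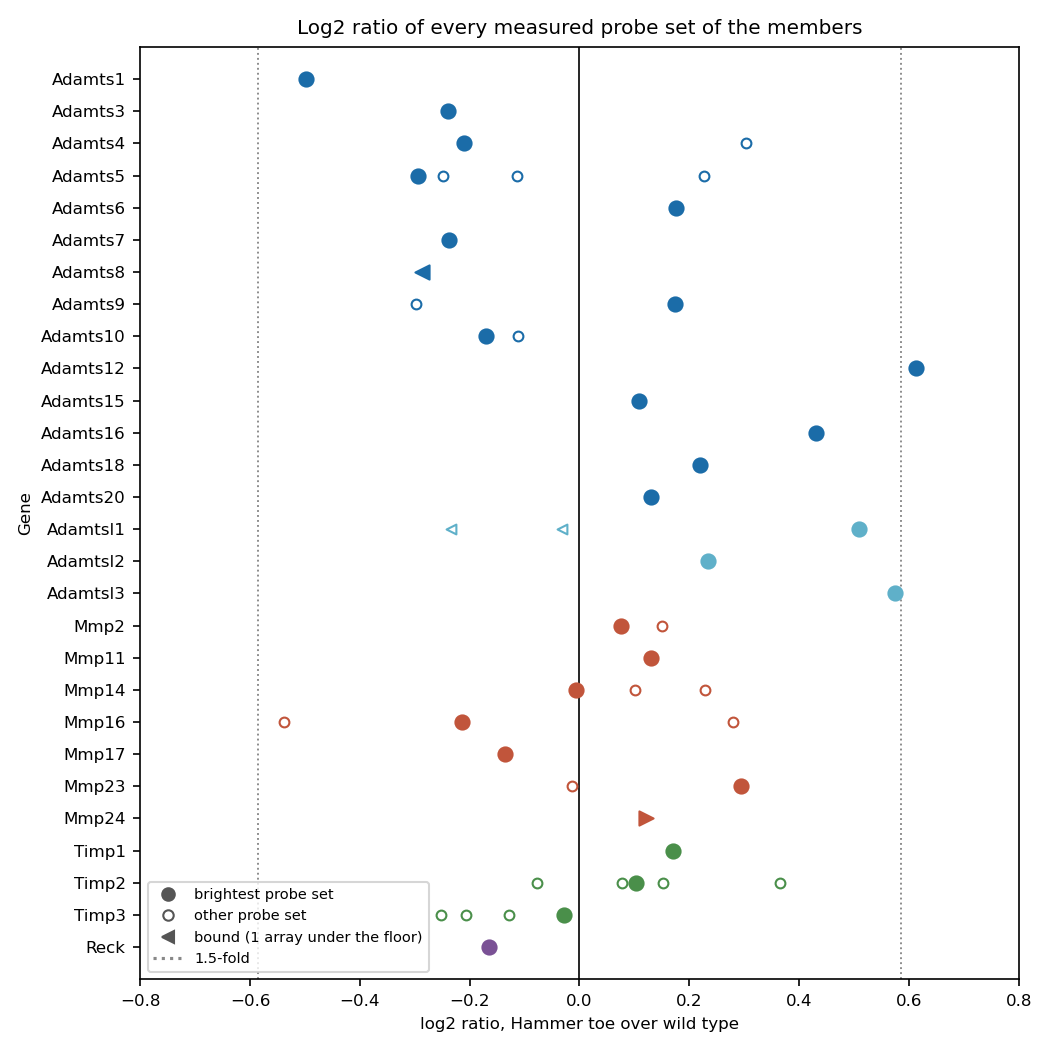
Log2 ratio, Hammer toe over wild type, of every measured probe set of the 28 measured members. Filled symbols are the brightest probe set of each gene, open symbols its other probe sets, triangles bounds, and dotted lines 1.5-fold. Adamts12 alone is drawn beyond a dotted line, and 8 of the 11 genes with several measured probe sets have symbols on both sides of 0.

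The remaining Adamts enzymes included the one member counted past 1.5-fold. Adamts12, which with Adamts7 is known to cut cartilage oligomeric matrix protein, read 124 in Hammer toe and 81.2 in wild type, 1.53-fold higher. The wild-type value lies just above the floor. For the 2070 dimmest genes, those no brighter than 200 on either array, the 95% range was 1.60-fold, so Adamts12 was inside it, and 99 genes (4.78%) were as high or higher. Adamts7 pointed the other way, with 169 in Hammer toe and 199 in wild type, a log2 ratio of -0.24. Adamts16 read 172 in Hammer toe and 128 in wild type, 1.35-fold higher, also within the range of its class. Its other probe set, with 21.6 in Hammer toe and 19.9 in wild type, was under the floor.

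Adamts3, a procollagen propeptidase, was at a log2 ratio of -0.24, with 182 in Hammer toe and 214 in wild type. Adamts10 and Adamts6, both tied to fibrillin microfibrils, were at -0.17 and 0.18, and both measured probe sets of Adamts10 were lower. Adamts18 was at 0.22. Adamts19 was under the floor on both arrays. Over the whole family 7 of 14 measured genes were higher and 7 lower, with a median of -0.03.

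All 3 measured Adamtsl genes read higher in Hammer toe on their brightest probe sets, though at low intensity. Of all 11621 measured genes, 6005 read higher. Adamtsl3 read 129 in Hammer toe and 86.8 in wild type, 1.49-fold higher. Adamtsl1 read 246 in Hammer toe and 173 in wild type, 1.42-fold higher on its brightest probe set. The other 2 Adamtsl1 probe sets, both below the floor in Hammer toe, pointed the other way, with bounds of -0.23 and -0.03, so the direction of Adamtsl1 depends on the probe set. Adamtsl2, which binds fibrillin and is linked to short digits in people, read 165 in Hammer toe and 140 in wild type, a log2 ratio of 0.23. The family median was 0.51 over these 3 genes, and each lay within the 95% range of its intensity class, which is 1.45-fold for the 4857 genes between 200 and 1000. Adamtsl4 and Adamtsl5 were under the floor on both arrays.

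Of the 7 measured Mmp genes, the 6 measured on both arrays were all under a log2 ratio of 0.32 in size on their brightest probe sets. Mmp14, the membrane-type protease that activates pro-Mmp2, read 4304 in Hammer toe and 4325 in wild type, a log2 ratio of -0.01, and its other probe sets stood at 0.23 and 0.10. Mmp2 (gelatinase A) read 4091 in Hammer toe and 3882 in wild type, at 0.08, and its other probe set was at 0.15. Timp2, which bridges Mmp14 and pro-Mmp2 on the cell surface, read 2716 in Hammer toe and 2530 in wild type, at 0.10. On their brightest probe sets the 3 genes of this activation complex were thus within 1.07-fold of wild type. Furin, a convertase that activates Mmp14, read 694 in Hammer toe and 693 in wild type.

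Mmp11 (stromelysin 3), known from tissue being remodelled, read 1042 in Hammer toe and 952 in wild type, at a log2 ratio of 0.13. Mmp23 read 184 in Hammer toe and 150 in wild type, at 0.29, with -0.01 on its other probe set. The 3 measured probe sets of Mmp16, a membrane-type protease, disagreed: -0.21 on the brightest, 0.28 on the next and -0.54 on the dimmest. Mmp17, a protease held by a lipid anchor, was at -0.14, and Mmp24, with 84.9 in Hammer toe and 59.5 (under the floor) in wild type, was at least 1.09-fold higher. Over the 7 measured Mmp genes the median log2 ratio was 0.08.

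**Figure D3:**
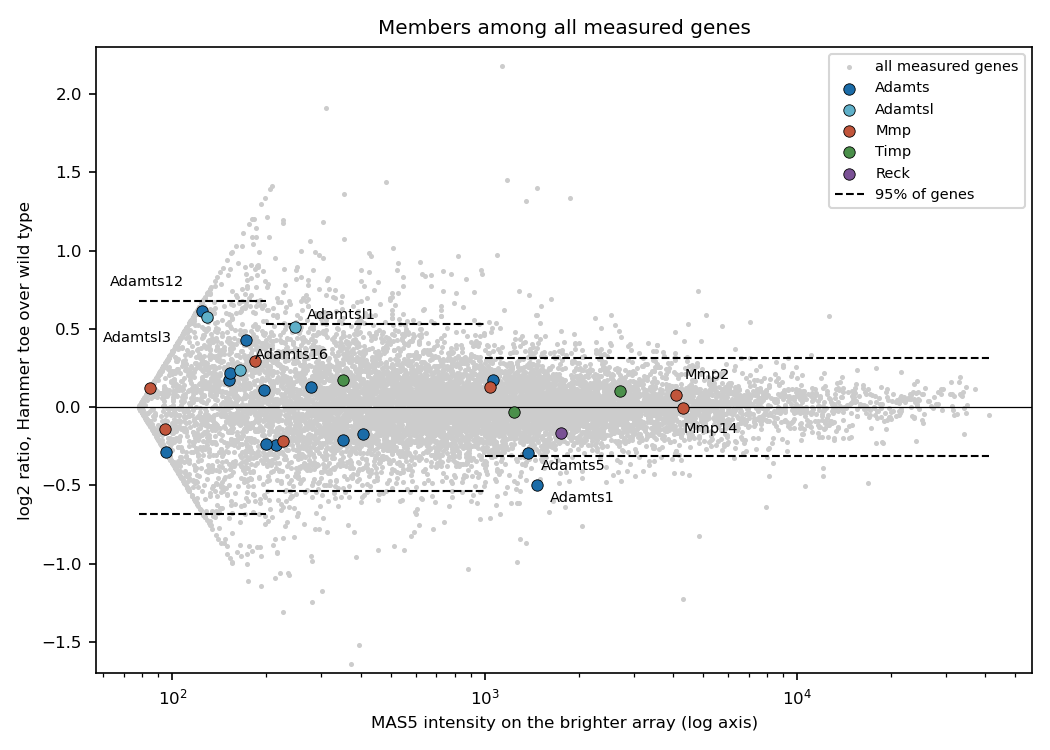
Log2 ratio, Hammer toe over wild type, against the MAS5 intensity of the brighter array (log axis) for all 11621 measured genes (grey) and the 28 measured members (coloured by family), with dashed lines enclosing 95% of genes in each of 3 intensity classes. Adamts1 at -0.50 is the only member drawn outside the lines, with Adamts8 and Mmp24 drawn at their bounds.

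The unmeasured Mmp genes include the collagenases and gelatinase of bone and inflammation. Mmp13, the collagenase of hypertrophic cartilage and bone, read 3.51 in Hammer toe and 0.265 in wild type. Mmp9, the gelatinase of osteoclasts and neutrophils, read 57.1 in Hammer toe and 51.6 in wild type, and Mmp8, the neutrophil collagenase, 4.22 in Hammer toe and 3.37 in wild type. All 7 neutrophil markers were under the floor on both arrays. Of 5 markers of hypertrophic cartilage, bone and osteoclasts, Col10a1 and Ibsp were under it and the other 3 (Sp7, Acp5 and Ctsk) were measured. Acp5 was above the floor in wild type alone, with 62.4 in Hammer toe and 115 in wild type. Mmp12, the macrophage elastase, read 0.514 in Hammer toe and 3.12 in wild type, while 10 of 10 macrophage markers were measured.

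The stromelysins Mmp3 and Mmp10, the matrilysin Mmp7, the interstitial collagenases Mmp1a and Mmp1b and the tooth protease Mmp20 read between 3.75 and 39.7 in Hammer toe and between 9.51 and 30.6 in wild type. Mmp19, outside the cluster, read 50.5 in Hammer toe and 50.7 in wild type. Values this low have no order, and no ratio is given.

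The inhibitors were close to wild type. Timp3, which is bound to matrix and also blocks Adamts4 and Adamts5, read 1218 in Hammer toe and 1243 in wild type. All 4 of its probe sets were lower, from -0.25 to -0.03. Timp1 read 350 in Hammer toe and 311 in wild type, a log2 ratio of 0.17. Timp1 lies on the X chromosome, and the arrays differed in sex-linked genes, with Xist at -0.44 and Eif2s3y at 0.77, whose part in the Timp1 value was not tested. The 5 measured probe sets of Timp2 ranged from -0.08 to 0.37. Timp4 was under the floor on both arrays. Reck read 1566 in Hammer toe and 1755 in wild type, a log2 ratio of -0.16 on its single probe set.

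Of 40 measured genes of related lists (substrates, other proteases, activators and other inhibitors), 2 were at least 1.5-fold higher and 3 at least 1.5-fold lower, against 2.17% and 1.39% of all measured genes. Another 3 of the 40 (Ncan, Hapln3 and Adam33) were under the floor in Hammer toe and have only a bound. The higher ones were the proteoglycan genes Lum, 2.64-fold, and Dcn, 1.67-fold. Lum read 1465 in Hammer toe and 556 in wild type, and Dcn 733 in Hammer toe and 439 in wild type. The lower ones were Col2a1, the collagen of cartilage, at a log2 ratio of -0.67, and Spock2 and Spock3, secreted proteoglycans known as regulators of Mmp activation, at -0.65 and -0.89. Spock3 read 100.1 in Hammer toe and 186 in wild type, and Spock2 90.9 in Hammer toe and 142 in wild type. Spock2, at 1.56-fold lower, lay inside the 1.60-fold 95% range of its intensity class. Fn1 (fibronectin), Fbn2 (fibrillin 2) and Col3a1 were at 0.08, 0.11 and 0.06, and Bsg (basigin), an inducer of Mmp synthesis, at 0.14. The 4 convertases Furin, Pcsk5, Pcsk6 and Pcsk7 had a median of 0.07. Pcsk5 was highest at 0.34, with -0.18 on its other probe set.

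**Figure D4:**
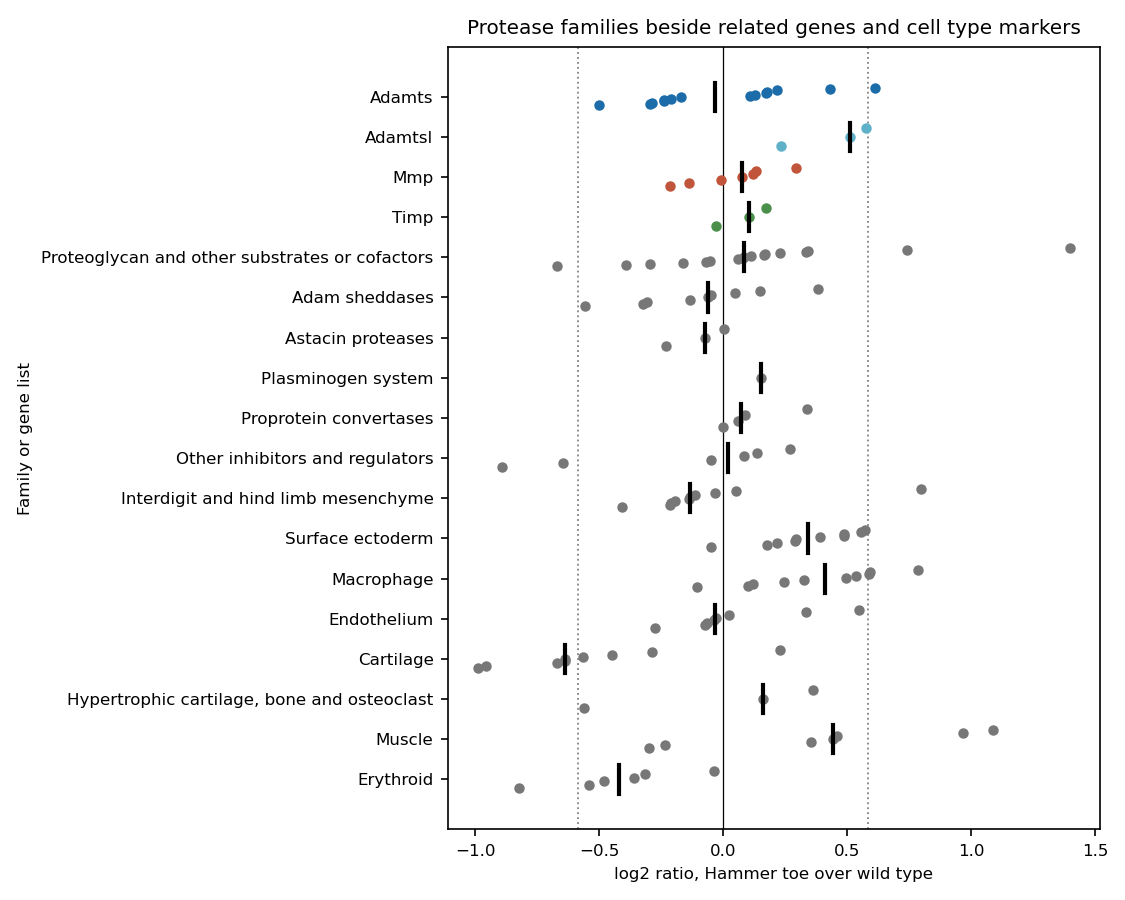
Log2 ratio, Hammer toe over wild type, of each measured gene (points) in the 4 protease and inhibitor families and in lists of related genes and cell type markers, with bounds drawn as points, black bars for medians and dotted lines at 1.5-fold. The Adamts, Mmp and Timp medians of -0.03, 0.08 and 0.10 lie near 0, and the Adamtsl median over 3 genes is 0.51. The cartilage median is -0.64 and the macrophage median 0.41.

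Marker genes of several cell types differed between the arrays. Markers of interdigit and hind limb mesenchyme were all measured, 10 of 10, with Pitx1 and Tbx4 of the hind limb among them. They were lower in 8 of 10, with Tbx3 1.74-fold higher, and summed to 66524 in Hammer toe and 73027 in wild type. Cartilage markers were lower in 8 of 9 measured genes and summed to 9907 in Hammer toe and 15444 in wild type, with Comp under the floor on both. Surface ectoderm markers were higher in 9 of 10 (sums of 13722 in Hammer toe and 10755 in wild type), macrophage markers in 9 of 10 (3838 in Hammer toe and 3003 in wild type) and muscle markers in 5 of 7 (1711 in Hammer toe and 1148 in wild type). Some ectoderm markers had probe sets of both signs. Epcam ranged from -0.71 to 0.57, Krt8 from -0.32 to 0.29 and Krt14, the one counted lower, from -0.05 to 0.40. Erythroid markers were lower in 6 of 6 (49710 in Hammer toe and 57914 in wild type), and endothelial markers were higher in 3 of 8 (4474 in Hammer toe and 4246 in wild type). The part of these cell types in the values of Adamts1, Adamts5, Adamts12 and the Adamtsl genes was not tested. In such bulk tissue, fewer cells of a type and less RNA per cell cannot be told apart.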

How the data were processed

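Biotinylated cRNA for the arrays came from 250 ng of RNeasy-purified total RNA, per the labels' protocols. The deposited intensities, on a linear scale, were made by the authors with the MAS5 method of Expression Console (Affymetrix; version not given), per the submitters' processing notes. After trimming 2% at both ends, both deposited columns averaged 500.003, so a change of most transcripts one way cannot be seen. The depth of an array is not defined, and the number of arrays limits the precision.

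Of 45101 probe sets, 64 were controls, and GEO's platform annotation gave 34945 exactly 1 gene, with symbols updated through the gene ID in the RefSeq table of GRCm38.p6. Each gene took the values of the probe set whose mean over both arrays was highest. Ratios were taken with Python 3.11.15 and numpy 2.4.6 after raising values to the floor of 78.1. Spread was taken from all genes of like intensity, from probe sets of the same gene (SD 0.21 of the log2 ratio) and from 18 spiked controls (SD 0.06), which leave out variation between embryos. No test was run. The script was tested on simulated data.

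Members, gene lists, the floor and the sizes of 1.5-fold and 0.32 on the log2 scale were chosen with earlier results of these data known, and the motifs and the grouping by substrate after the values were seen. By rule every measured member is named, with all probe sets for those past the smaller size or with a mean of 1000 or more, and other genes at 1.5-fold or as substrates, cofactors, activators or markers. Scaling was varied by quantile normalization, by centring on medians and by a lowess curve (span 0.3, statsmodels 0.14.6). The floor was dropped, set to the 25th or the 75th percentile, or replaced by a pseudocount of the same value. Probe sets of a gene were averaged, or those of the types _x_at, _s_at and _a_at dropped, and the size was set to the smaller one or to 2-fold.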

Additional observations from a re-analysis of the deposited data

How the results depend on the processing

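With 1 array per genotype, nothing here measures variation between embryos, and the values near the floor are the least certain. The count of members at 1.5-fold depended on the floor. Without a floor, 4 members were higher and 8 lower, against 13.0% and 12.6% of all genes, and a floor at the 25th percentile (19.8) gave 3 higher and 4 lower, against 7.48% and 6.89%. Under both, Adamts8 was at -0.80 and Mmp24 at 0.51. A floor at the 75th percentile (498) left 9 members, of which 0 were higher, against 0.356% of all genes, and the Adamts median was -0.29, since Adamts1, Adamts5 and Adamts9 alone remained of that family. With the pseudocount 0 were higher, against 1.02% of all genes, and Adamts12 was at a log2 ratio of 0.34. A size of 0.32 on the log2 scale gave 4 higher and 1 lower, and 2-fold gave 0 higher. The Adamtsl median was 0.23 without a floor, with that of the 25th percentile and with the mean over probe sets, by which Adamtsl1 stood at 0.08. By that mean Adamts4 was at 0.05, Adamts9 at -0.06 and Mmp14 at 0.11, each with the opposite sign to its brightest probe set. Adamts1 ranged from -0.51 to -0.47 over 9 alternatives. The Mmp and Timp medians moved by less than the SD between probe sets of a gene in every alternative run.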

Other observations

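Other extracellular proteases, which belong to none of the families above, were mostly close to wild type. Of 9 measured Adam genes, membrane proteases that release growth factors and receptors from the cell surface or are thought to lack protease activity, 3 were higher and 6 lower, with a median log2 ratio of -0.06. Adam10 and Adam17, the main sheddases, were near wild type on their brightest probe sets. Adam10 read 4038 in Hammer toe and 3904 in wild type, and Adam17 read 1073 in Hammer toe and 1176 in wild type. The log2 ratios of their probe sets ranged from -0.20 to 0.05 for Adam10 and from -0.13 to 0.45 for Adam17. Among the Adam genes measured on both arrays the furthest was Adam22, 1.47-fold lower with 311 in Hammer toe and 457 in wild type. Adam22 is a member without protease activity known from the nervous system. Adam33, with 27.7 in Hammer toe (under the floor) and 97.8 in wild type, was at a log2 ratio of -0.32 or lower. Adam15 was 1.30-fold higher, and Adam12, known from muscle and mesenchyme, 1.24-fold lower.

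The procollagen C-proteinase Bmp1 was at a log2 ratio of -0.07, and its other probe set at -0.42. Its enhancer Pcolce read 5783 in Hammer toe and 5768 in wild type. Of the plasminogen system only Plat, a plasminogen activator, was measured, with 139 in Hammer toe and 125 in wild type. The other activator Plau read 17.9 in Hammer toe and 16.9 in wild type, and its receptor Plaur 60.3 in Hammer toe and 72.9 in wild type, all under the floor.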
